A study of Mus musculus with 16 samples.

Results

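The replication-dependent histone genes were followed in marrow-flushed cortical bone from 16 female C57Bl/6 mice. The members are every row of the expression files whose gene symbol begins with Hist1h, Hist2h, Hist3h or Hist4h, a rule on the name alone that uses no measured value. It found 63 genes among the 36829 features listed, namely 6 of the linker histone H1, 18 of H2A, 16 of H2B, 11 of H3 and 12 of H4. They lie in the histone clusters of chromosomes 13, 3 and 11 of the mouse, apart from Hist1h2al, a processed pseudogene elsewhere on chromosome 13 (chr13:51202727-51203065). Within the clusters, Hist1h2aj (unprocessed) and Hist3h2bb-ps (processed) are also annotated as pseudogenes and are counted with their classes. The reference annotation (GENCODE M21 on GRCm38) holds 70 genes with such names, and the other 7 (Hist2h3c1, Hist4h4, Hist1h2bl, Hist1h2bm, Hist1h2bn, Hist1h2ao and Hist1h2ap) were not analysed here.

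The mice were 11 weeks old and the labels name no transgene or other allele. In the HLU group, 8 mice had their hindlimbs lifted off the ground for 7 days (hindlimb unloading, a model of disuse), and in the Control group 8 mice bore weight normally for the same time. Each mouse gave its own library, so p-values measure the spread between mice. Which mice shared a sequencing lane is not given in the sources used here. Values are RPKM, the reads on a gene scaled to the length of the gene and to the number of reads in the library, so that levels can be compared between genes.

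In an S phase cell these genes supply the histones that package newly made DNA into nucleosomes, whose core holds H2A, H2B, H3 and H4 and whose linker DNA is bound by H1. Their mRNAs are the exception among messenger RNAs in that they usually end in a conserved stem-loop, bound by the stem-loop binding protein SLBP, and not in a poly(A) tail. The library kit named by the study (TruSeq RNA v2) selects RNA by its poly(A) tail, and some histone genes are known to make poly(A) transcripts as well, mostly in cells that have stopped dividing. The levels below are therefore those of histone RNA that entered such a library, and the part of histone RNA without a tail was not measured here.

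The stem-loop is shown because it separates the members by the transcript end the annotation gives them. The histone stem-loop, a stem of 6 base pairs around a loop of 4 bases with the invariant letters of the family fixed and the variable ones left free, was searched on the transcript strand. It was found in 174 of 141767 annotated transcripts (0.123%) and in transcripts of 41 of the 63 members, where it began 24 to 61 bases past the last coding base. Several other members, such as Hist1h1b, Hist1h2ai, Hist1h3h and Hist1h4k, have an annotated transcript that ends at the stop codon. A stem-loop or poly(A) signal past it could not be found for them. The transcripts of Hist1h1a and Hist2h3b end within the stem-loop. A missing motif is therefore not evidence that the gene lacks it. The sequences carry 8 spellings, written 5′ to 3′ as DNA with the stem in capitals and the loop in lower case, and taken from the GENCODE M21 transcripts.
The form of Hist1h1c, Hist3h2a and 20 other members: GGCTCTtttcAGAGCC
The form of Hist1h2bb, Hist1h2bk, Hist1h1t, Hist1h3c, Hist1h3e and Hist1h3f: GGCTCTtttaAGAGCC
The form of Hist1h4c, Hist1h4d, Hist1h4f, Hist1h4h, Hist1h4m and Hist1h4n: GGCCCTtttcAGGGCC
The form of Hist1h4i and Hist2h4: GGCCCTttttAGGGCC
The form of Hist1h4b and Hist1h4j: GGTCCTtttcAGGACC
The form of Hist1h4a: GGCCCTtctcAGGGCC
The form of Hist1h3g: GGCTCTtcttAGAGCC
The form of Hist2h2ac: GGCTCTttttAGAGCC
None of the 4 spellings of the H4 genes was found in a member of another class. Transcripts with the stem-loop ran on for 3 to 4884 bases past it, and for 16 of the 41 genes by at least 200 bases. A poly(A) signal (AATAAA or ATTAAA in the last 40 bases) was found in at least 1 transcript, of any type, of 15 members. It was in 48.7% of all protein-coding transcripts, a share counted by transcript and not by gene. Neither motif was found for Hist1h2bc, and Hist2h2be had the signal without the stem-loop.

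The sites of the genes on which the results turn are shown with their flanks, again with the stem in capitals.
Hist1h1c: caaaaGGCTCTtttcAGAGCCaccactccc
Hist3h2a: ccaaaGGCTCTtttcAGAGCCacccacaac
Hist1h4i: ttaaaGGCCCTttttAGGGCCaccacaaaa
Hist1h2bk: ccaaaGGCTCTtttaAGAGCCactaaacca
The annotated transcript of Hist1h1c went on for 840 bases past this site, that of Hist3h2a for 1643 bases, that of Hist1h4i for 330 bases and that of Hist1h2bk for 30 bases. The ends of the transcripts of Hist1h1c and Hist2h2be carry the poly(A) signal, here in capitals.
Hist1h1c: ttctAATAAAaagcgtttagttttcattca
Hist2h2be: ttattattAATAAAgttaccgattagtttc

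Histone promoters are shown because the members differ in them by class. RefSeq promoters (GRCm38.p6, 250 bases before to 50 after the start of the gene) were matched for 55 members, 1 of them with 2 starts. Hist1h2bc and Hist2h2be, the H2B genes with the highest levels, were not matched, so the windows leave them out. A CCAAT box (CCAAT on either strand) was in 85.7% of these 56 windows and in 37.4% of all 32851 promoters of the same length. It was in every window of the H1, H2A, H2B and H3 genes and in 3 of 11 windows of the H4 genes. The letters TATAA were in 82.1% of the histone windows and in 24.9% of all promoters. The octamer motif ATTTGCAT was in 7 of 16 windows of H2A genes and 6 of 14 of H2B genes, in none of the windows of H1, H3 and H4 genes, and in 1.74% of all promoters. A match describes these letters only and is not a site shown to be used. The windows of an H1, an H2A, an H2B and an H4 gene that the results return to follow, with the letters of the 3 motifs in capitals on whichever strand they were read.
Hist1h1c, chr13:23738557-23738856, + strand: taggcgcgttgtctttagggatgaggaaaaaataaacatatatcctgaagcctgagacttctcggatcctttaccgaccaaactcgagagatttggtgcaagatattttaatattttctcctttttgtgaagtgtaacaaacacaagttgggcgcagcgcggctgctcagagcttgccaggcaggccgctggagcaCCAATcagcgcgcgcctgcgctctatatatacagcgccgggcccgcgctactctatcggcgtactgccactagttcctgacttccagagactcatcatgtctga
Hist3h2a, chr11:58954435-58954734, + strand: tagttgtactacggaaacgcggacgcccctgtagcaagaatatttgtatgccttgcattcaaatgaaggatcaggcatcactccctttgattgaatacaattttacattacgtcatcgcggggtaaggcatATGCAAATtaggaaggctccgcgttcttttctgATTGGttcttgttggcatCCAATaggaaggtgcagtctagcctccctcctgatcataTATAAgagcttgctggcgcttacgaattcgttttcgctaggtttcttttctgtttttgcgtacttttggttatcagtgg
Hist1h2bb, chr13:23746484-23746783, + strand: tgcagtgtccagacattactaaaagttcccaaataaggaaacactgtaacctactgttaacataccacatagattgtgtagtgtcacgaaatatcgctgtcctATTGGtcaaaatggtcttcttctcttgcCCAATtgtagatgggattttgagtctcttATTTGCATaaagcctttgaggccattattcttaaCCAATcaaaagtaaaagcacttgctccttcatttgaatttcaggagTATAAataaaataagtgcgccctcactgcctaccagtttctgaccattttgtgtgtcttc
Hist1h4i, chr13:22041313-22041612, - strand: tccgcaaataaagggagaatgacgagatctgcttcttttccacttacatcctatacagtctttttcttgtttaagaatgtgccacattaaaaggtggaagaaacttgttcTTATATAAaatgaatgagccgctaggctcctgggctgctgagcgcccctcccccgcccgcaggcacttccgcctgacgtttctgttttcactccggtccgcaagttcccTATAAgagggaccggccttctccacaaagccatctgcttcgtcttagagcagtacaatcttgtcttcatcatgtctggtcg

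Depth and tissue are given in ranges. The libraries had been divided by 7067512 to 21363584 reads, and a count of 3 reads on a transcript of 1 kb corresponded to 0.140 to 0.424 RPKM. The smallest libraries were those of Control 2 and HLU 5. All 6 osteocyte markers passed the filter on low values and summed to 179 to 598 RPKM per mouse, but 7 granulocyte markers summed to 12325 to 44371 RPKM and 12 erythroid markers to 1710 to 8780 RPKM, so RNA of marrow cells was present in every library. Proliferation genes were expressed in every mouse as well. Mcm2, a subunit of the replicative helicase, lay between 15.9 and 67.9 RPKM and Mki67, the marker of cycling cells, between 52.5 and 294 RPKM. Fewer cells of a type and less RNA per cell cannot be told apart in such bulk samples. Skeletal muscle markers were not analysed here, and the 6 testis markers summed to at most 0.884 RPKM.

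Beside these proliferation genes, most histone genes were at or near 0. Of the 63 members, 57 had a value above 0 in at least 1 mouse, 13 were above 0 in all 16 mice, and 16 had 3 or more reads in at least 8 mice. The 6 listed at 0 in every mouse were Hist1h2ba, Hist1h2aa, Hist1h3e, Hist1h2ag, Hist1h3a and Hist2h3b. A further 13 genes never reached 3 reads in any mouse. Per mouse, 23 to 42 members (median 28.5) were above 0 in Control and 19 to 39 (median 28) in HLU. The groups overlapped in the number of histone genes seen. The reads recovered on all members numbered 895 to 3372 in Control and 1140 to 3353 in HLU.

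Histone RNA was concentrated in a few genes. The summed mean of the 63 members was 116 RPKM, and 89.1% of it belonged to Hist1h1c, Hist1h2bc, Hist2h2be, Hist1h4i and Hist3h2a. By class, H2B made up 45.3% of the sum, H1 35.5%, H4 10.4%, H2A 6.77% and H3 1.99%. In H1 and H4 a single gene stood for nearly all of the class, since Hist1h1c held 96.9% of the H1 sum and Hist1h4i held 91.3% of the H4 sum. Hist3h2a held 76.1% of the H2A sum, Hist1h2bc 65.7% of the H2B sum and Hist1h3d 45.2% of the H3 sum. The next gene after the leading one was at 0.509 RPKM in H1 (Hist1h1e), 0.947 in H2A (Hist1h2ac), 11.8 in H2B (Hist2h2be), 0.831 in H3 (Hist2h3c2) and 0.237 in H4 (Hist2h4). The members with the stem-loop and no poly(A) signal in the annotation had means of 0 to 1.12 RPKM over 29 genes, and those with both had means of 0.0241 to 39.9 RPKM over 12 genes. The medians of these sets were 0.113 and 0.263 RPKM, and their ranges overlapped.

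**Figure D1:**
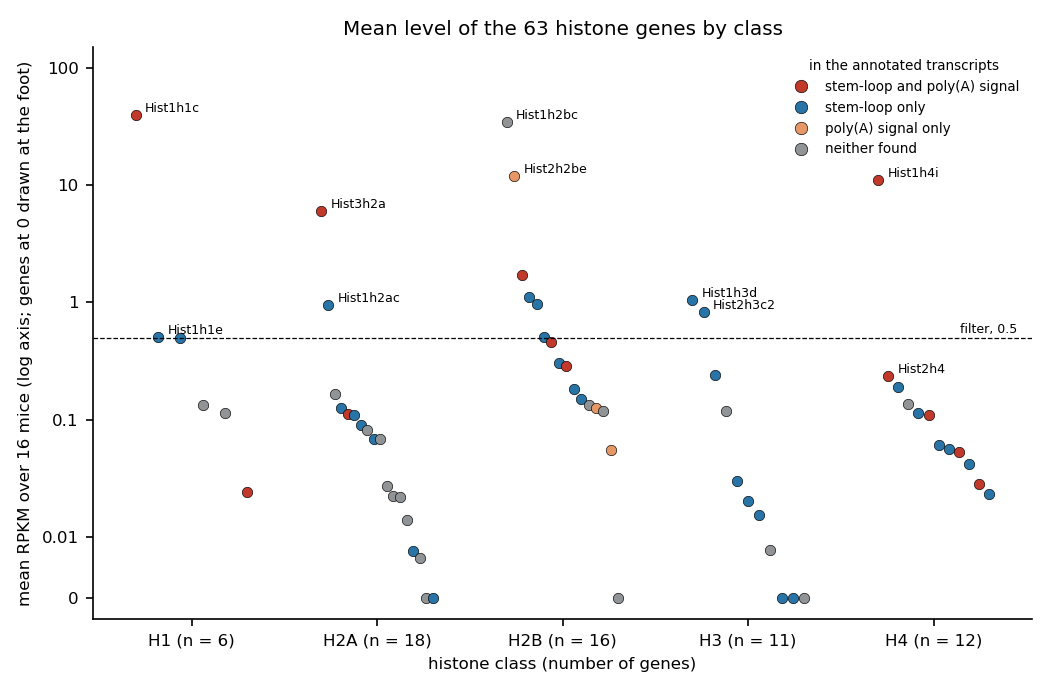
Mean RPKM over 16 mice (log axis, genes at 0 drawn at the foot) of each of the 63 histone genes, by class, with colours for the stem-loop and the poly(A) signal found in the annotated transcripts and the filter at 0.5 RPKM as a dashed line. Each class has few genes above the line (2 of H1, 2 of H2A, 6 of H2B, 2 of H3 and 1 of H4), and Hist1h1c (39.9 RPKM) and Hist1h2bc (34.4 RPKM) are the highest.

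Sequence is shared between members, which bears on the scarce genes. For 27 of the 63 genes more than 50% of the 50-base windows of their transcripts also occur in another member, and 26 of these 27 lie below the filter. The shares were 8.54% for Hist1h1c, 0% for Hist2h2be, 2.00% for Hist3h2a, 28.9% for Hist1h4i and 29.4% for Hist1h2bc. How reads that fit several genes were counted is not given in the sources used here, so values of the scarce H2A, H2B, H3 and H4 genes are uncertain between copies.

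The comparison of HLU with Control asks whether unloading changed these transcripts. The test was limma on log2(RPKM + 0.1) with Benjamini-Hochberg adjustment over the 16973 features whose mean reached 0.5 RPKM. Beside it stands an exact permutation p (two-sided, all splits of the 16 mice into groups of 8). A gene was called at an unadjusted p under 0.05 with a change of at least 1.2-fold. Of the members, 13 passed the filter, and 50 did not. Among the 13, Hist3h2a was called lower in HLU, and no gene was called higher. Over all features, 4.76% were called lower and 1.11% higher, so a single call among 13 genes is close to that share. At the adjusted threshold (adjusted p under 0.1) no histone gene was called, beside 0% of all features; 1 of 13 had an unadjusted p under 0.05 by limma, and the same number by voom on reads.

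Hist3h2a, an H2A gene of the small cluster on chromosome 11 (chr11:58954685-58956830, + strand, 1 exon), was the member with the clearest difference. In Control its level ran from 5.85 RPKM to 8.28 RPKM with a median of 6.61, and in HLU from 3.88 to 6.67 RPKM with a median of 5.27. Of the HLU mice, 6 lay below every Control mouse, while HLU 4 and HLU 8 lay within the Control range, so the groups overlapped. The means were 6.68 ± 0.766 and 5.25 ± 0.931 RPKM (SD, n = 8 each, exact permutation p = 0.00451). The log2 fold change was -0.35 (SE 0.12), a level 0.783 times that of Control, with a limma adjusted p of 0.744. With quantile normalization, which evens out the distributions of the libraries, the log2 fold change was -0.24 and Hist3h2a was no longer called. Its annotated span overlaps Trim17 on the same strand and Gm44313 on the other strand, and it rested on 70 to 259 reads per mouse. The second H2A gene, Hist1h2ac, had medians of 1.09 RPKM in Control (0.477 to 1.73) and 0.887 in HLU (0.331 to 1.51), with a log2 fold change of -0.33 (SE 0.29, limma adjusted p = 0.773). Its span overlaps Gm24991 on the same strand and Gm44350 on the other. The 16 other H2A members were below 0.5 RPKM, the highest of them Hist1h2aj, annotated as a pseudogene, with a mean of 0.167 RPKM.

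Hist1h1c, the linker histone gene with the highest level of all members (chr13:23738808-23740367, + strand, 1 exon), spread widely in both groups. It ran from 16.4 to 58.8 RPKM in Control, with a median of 41.9, and from 26.3 to 54.2 RPKM in HLU, with a median of 38.9. The 2 lowest mice of all were Control 1 and Control 2, and every HLU mouse lay within the Control range. The means were 40.1 ± 14.9 and 39.6 ± 9.98 RPKM (SD, n = 8 each, exact permutation p = 0.846), and the log2 fold change was 0.05 (SE 0.25). Hist1h1e, also an H1 gene, was near the filter with medians of 0.507 RPKM in Control and 0.421 in HLU, on at most 16 reads in a mouse, and a log2 fold change of -0.57 (SE 0.43). Its span overlaps Hist1h2be and Gm11398 on the same strand. The third H1 gene, Hist1h1d, fell short of the filter with a mean of 0.494 RPKM. The testis-type H1 gene Hist1h1t had 6 reads over all 16 libraries.

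The leading H2B genes, Hist1h2bc (chr13:23684199-23692908, + strand, 2 exons) and Hist2h2be (chr3:96221119-96223738, + strand, 1 exon), were among the steadiest members. Hist1h2bc lay between 30.0 and 44.8 RPKM in Control, with a median of 36.0, and between 25.9 and 41.2 RPKM in HLU, with a median of 32.7. Of the HLU mice, 3 were below every Control mouse, and the others lay among them. Its log2 fold change was -0.16 (SE 0.12, limma adjusted p = 0.760, exact permutation p = 0.150 with n = 8 each). Hist2h2be lay between 9.39 and 15.2 RPKM in Control, with a median of 13.2, and between 7.47 and 15.8 RPKM in HLU, with a median of 10.9. Its highest mouse of all was HLU 8 and its 3 lowest were also HLU mice, so that the HLU group spanned the Control group. Its log2 fold change was -0.26 (SE 0.16, limma adjusted p = 0.747), and it was called lower once HLU 8 was left out (log2 fold change -0.34).

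The remaining H2B genes were far lower and varied strongly from mouse to mouse. Hist3h2ba had medians of 1.34 RPKM in Control (0.193 to 6.31) and 1.59 in HLU (0.412 to 3.73), and a log2 fold change of 0.08 (SE 0.58), on 2 to 61 reads per mouse. Hist1h2bg, Hist1h2bk and Hist1h2bb, named here after their values were seen, had log2 fold changes of -0.70 (SE 0.59), -1.10 (SE 1.05) and -0.81 (SE 0.70). These are the largest standard errors among the 13 genes, and their limma adjusted p-values were 0.766 to 0.784. Hist1h2bk was at 0 in 9 of 16 mice.

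Hist1h3d and Hist2h3c2 were the H3 genes that passed the filter. Hist1h3d had medians of 1.06 RPKM in Control (0.670 to 1.64) and 0.982 in HLU (0.411 to 1.52), with a log2 fold change of -0.18 (SE 0.24). Hist2h3c2 had medians of 1.14 RPKM in Control (0.261 to 1.70) and 0.705 in HLU (0.156 to 1.10). Each of the 8 HLU mice was below the Control median of Hist2h3c2, but Control 1 (0.261) and Control 7 (0.494) lay among the lower mice as well, and the log2 fold change of -0.57 (SE 0.40) had a limma adjusted p of 0.760. The third H3 gene, Hist1h3g, had a mean of 0.238 RPKM on 28 reads in all.

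Hist1h4i was the only H4 gene above the filter (chr13:22040636-22041362, - strand, 1 exon). It ran from 6.05 to 18.0 RPKM in Control, with a median of 13.5, and from 7.13 to 14.7 RPKM in HLU, with a median of 8.99. Of the HLU mice, 7 were below the Control median, but Control 1 and Control 4 were the lowest of all 16 mice, and the log2 fold change was -0.26 (SE 0.25, limma adjusted p = 0.790, exact permutation p = 0.341 with n = 8 each). The next H4 genes, Hist2h4 and Hist1h4m, had means of 0.237 and 0.190 RPKM.

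**Figure D2:**
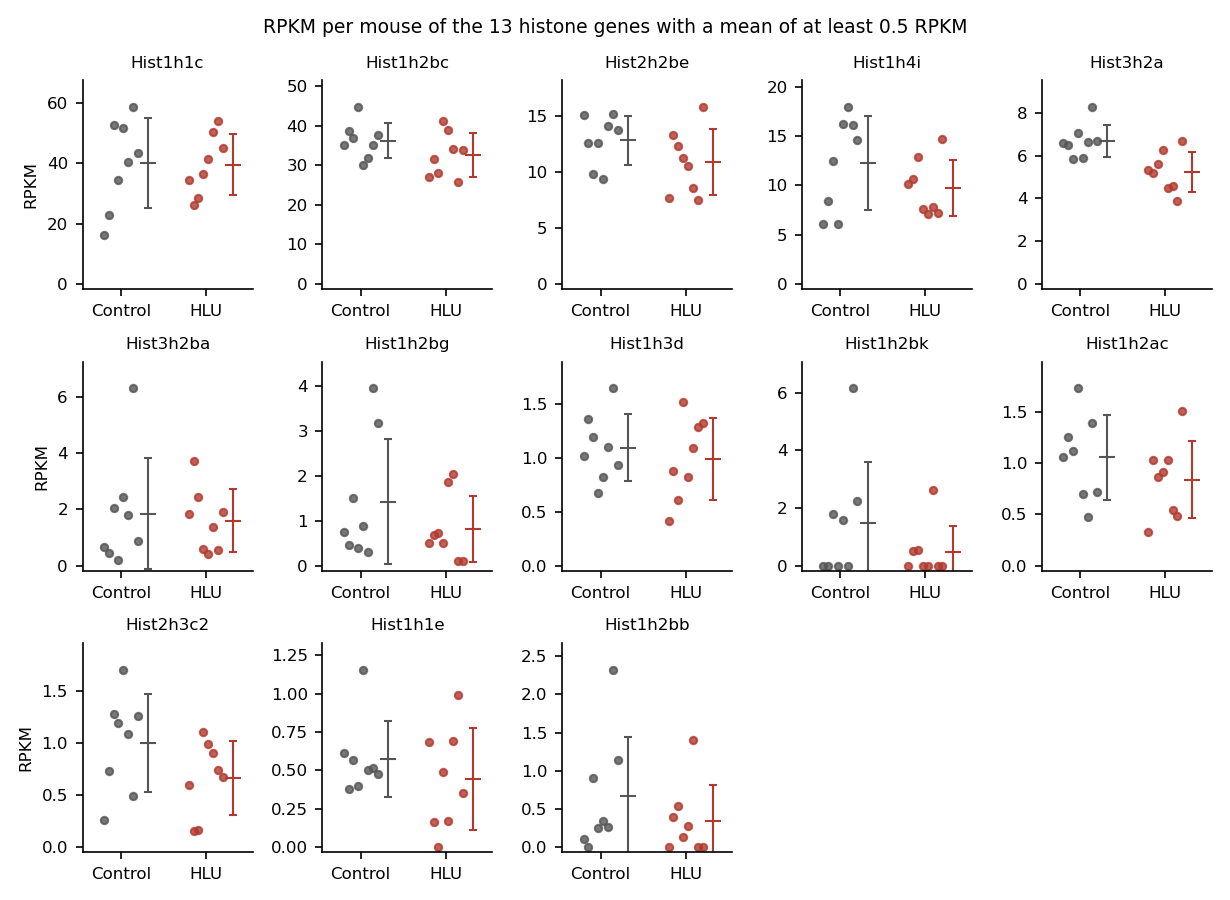
RPKM of the 13 histone genes with a mean of at least 0.5 RPKM in each of the 8 Control and 8 HLU mice (points), with mean and SD beside them, each panel on its own linear axis. The groups overlap in every panel; in that of Hist3h2a, 6 HLU mice lie below all Control mice.

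Summed over each class, the mean of HLU was below that of Control, and the groups overlapped. The H2A sum had a mean of 9.02 ± 1.45 RPKM in Control and 6.65 ± 1.23 in HLU (SD, n = 8 each), a log2 ratio of -0.44. For H2A, 7 of the 8 HLU mice lay below every Control mouse, and the overlap came from HLU 8 (8.99 RPKM). The H2B sum was 56.9 ± 8.89 and 47.9 ± 7.62 RPKM (log2 ratio -0.25), the H3 sum 2.57 ± 0.534 and 2.03 ± 0.651 RPKM (-0.34) and the H4 sum ran from 6.36 to 18.3 RPKM in Control and from 7.51 to 16.8 RPKM in HLU (-0.23). The H1 sum was 41.5 ± 15.1 and 40.7 ± 10.3 RPKM, a log2 ratio of -0.03. The sums were not tested. The median log2 fold change of the 13 genes was -0.33, with 11 of 13 below 0. Over all features tested the median was -0.10, with 11523 of 16973 below 0. Hist1h2bk, Hist1h1e and Hist1h2bb had HLU means below the filter (0.459, 0.443 and 0.341 RPKM). They passed it through their Control values, so the filter itself favoured a negative sign for them. With a minimum mean of 2 RPKM the histone median was -0.26, with 4 of 5 below 0, beside -0.11 over all features. With quantile normalization the median of all features moved to 0.00 and its calls from 188 higher and 808 lower to 460 higher and 364 lower, while the histone median was -0.24. With the erythroid and granulocyte scores of each mouse as covariates the histone median was -0.09, with 8 of 13 below 0. In that fit Hist1h1c (log2 fold change 0.39, limma adjusted p = 0.139) and Hist3h2ba (1.26, limma adjusted p = 0.149) were called higher, where 1345 of all 16973 features were called higher and 1666 lower. Each score was the mean of the centred log2 levels of its markers. The log2 fold changes of these markers had a median of -0.57 for the erythroid and -0.16 for the granulocyte list, beside -0.10 over all features. The erythroid markers were lower in HLU, so that covariate moved with the groups. As summed RPKM, another measure, the erythroid markers had medians of 3932 in Control and 2675 in HLU, and the granulocyte markers 29889 and 24963.

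**Figure D3:**
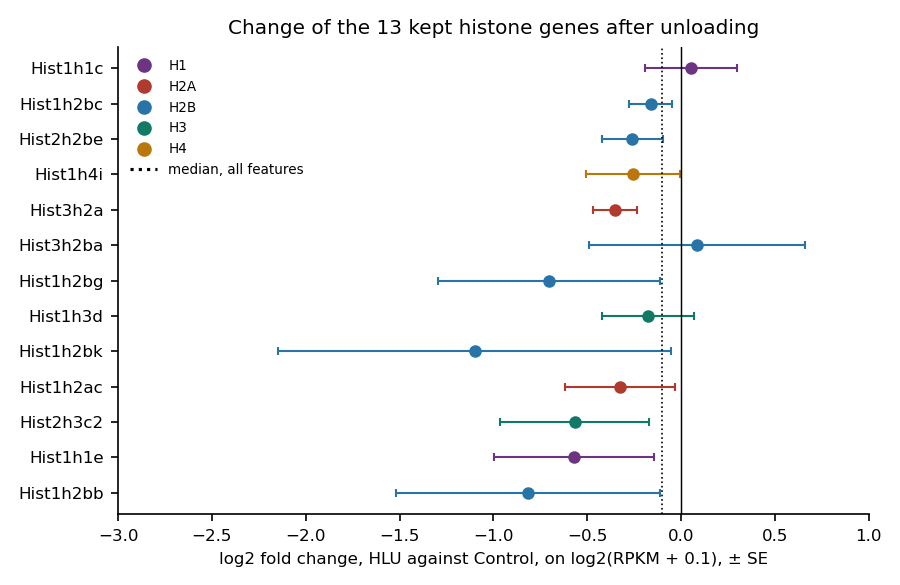
Log2 fold change of HLU against Control with its SE for the 13 histone genes with a mean of at least 0.5 RPKM, in order of level and coloured by class, with the median of all 16973 features as a dotted line at -0.10. Of the 13 points, 11 lie below 0, and the error bars of the scarce H2B genes are the widest.

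Covariation with Mcm2 and Mki67 was examined across mice within groups, since replication-dependent histone transcripts would be read as an S phase measure. Log2 values were centred on the group mean, and 26 relations (13 genes with each partner) were tested by 100000 permutations within groups and adjusted together. Mcm2 and Mki67 themselves had a Pearson's r of 0.694 over the 16 mice (Spearman's rho 0.691, permutation p = 0.00606 and 0.00693). Within groups it was 0.32 in Control and 0.88 in HLU, a difference that was not tested. Without the 2 mice farthest from the median of Mcm2, r was 0.548. With Mcm2, 3 of 13 had an r of at least 0.5 and 2 had an r of -0.5 or below, beside 24.3% and 11.5% of all features. With Mki67 it was 2 and 3 of 13, beside 27.9% and 18.7% of all features. The median r of the 13 genes was 0.27 with Mcm2 and -0.06 with Mki67, beside 0.16 and 0.07 over all features.

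The relation with the smallest p was that of Hist2h2be with Mki67. Its r was 0.853 and its rho 0.838 (permutation p adjusted over the 26 relations 0.0026 for r and 0.0091 for rho), with r of 0.844 in Control and 0.860 in HLU. Without the 2 mice farthest from the median, r was 0.813. Hist1h1c ran the other way. Its r with Mki67 was -0.700 and its rho -0.674 (adjusted permutation p = 0.0198 and 0.0480), with r of -0.742 in Control, -0.774 in HLU and -0.657 without the 2 farthest mice. Control 1, the mouse with the most Mki67 (294 RPKM), had the least Hist1h1c, and HLU 7, with the least Mki67 (52.5 RPKM), had 54.2 RPKM of Hist1h1c. Hist2h3c2 (r = -0.700, adjusted permutation p = 0.0265) and Hist1h1e (r = -0.708, adjusted permutation p = 0.0265) were also lower where Mki67 was higher. For Hist1h1e, rho was -0.668 with an adjusted permutation p of 0.0509. Hist1h4i had an r of -0.475 with Mki67 in Control and of 0.711 in HLU, a difference that was not tested.

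With Mcm2, 4 genes had an adjusted permutation p under 0.05 for r and none for rho. Hist3h2ba (r = 0.627) and Hist1h4i (r = 0.560) ran with Mcm2, and Hist1h1e (r = -0.722) and Hist2h3c2 (r = -0.660) ran against it. The same 4 genes had rho of 0.538, 0.521, -0.668 and -0.609, with adjusted permutation p of 0.0968, 0.0968, 0.0556 and 0.0701. Without the 2 mice farthest from the median of Mcm2 their r was 0.598, 0.505, -0.478 and -0.592. Within groups, Hist1h1e had an r of -0.204 in Control and -0.864 in HLU, and Hist2h3c2 of -0.379 and -0.827. For Hist3h2ba it was 0.575 and 0.756, and for Hist1h4i 0.510 and 0.736. These differences between the groups were not tested. The number of such genes was 0 when HLU 2, HLU 3 or HLU 7 was left out, 1 without Control 4 or Control 7, and 2 without HLU 1, HLU 4 or HLU 6. For Mki67 the count was 4, and it was 1 without HLU 2. Hist2h2be, not among the 4 genes for Mcm2, had an r of 0.616 with Mcm2 (0.564 in Control, 0.639 in HLU). Its rho with Mcm2 was 0.688, and the adjusted permutation p was 0.0697 for r and 0.0509 for rho.

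Marrow markers moved with these relations. Over the 13 members, Mcm2 and Mki67, each was also set against the summed level of 5 marker lists and the library size, 90 relations chosen after the data were seen and adjusted together. The granulocyte sum followed Mki67 closely (r = 0.961, rho = 0.962, adjusted permutation p = 0.0009). It also had an r of 0.884 with Hist2h2be (rho 0.829), -0.615 with Hist1h1c (rho -0.618) and -0.741 with Hist1h1e (rho -0.729), with adjusted permutation p of 0.0033, 0.0472 and 0.0425 for r. By rho the adjusted permutation p was 0.018 for Hist2h2be, 0.0744 for Hist1h1c and 0.0655 for Hist1h1e, so the latter pair did not pass 0.05. The megakaryocyte sum, with medians of 1350 RPKM in Control and 775 in HLU, had an r of 0.867 with Mki67, 0.794 with Mcm2, 0.717 with Hist2h2be and -0.739 with Hist1h1e (adjusted permutation p = 0.0033, 0.0176, 0.0475 and 0.0475). For rho, the adjusted permutation p of these megakaryocyte relations was 0.036, 0.0144, 0.113 and 0.0655. The erythroid sum had an r of 0.835 with Mcm2, 0.717 with Hist3h2ba and 0.666 with Hist1h4i (adjusted permutation p = 0.00405, 0.0336 and 0.0417). For rho, these were 0.0403, 0.0704 and 0.036. Outside the marrow lists, Hist1h3d had an r of -0.667 with the osteoblast sum (adjusted permutation p = 0.0475). Its rho was -0.632 (adjusted permutation p = 0.0757). When the erythroid and granulocyte scores were taken out by regression, no gene had an adjusted permutation p under 0.05 with Mcm2. Of the 4 genes correlated with Mki67, Hist2h2be still passed (r = 0.686, adjusted permutation p = 0.0225) and the other 3 did not, the r of Hist1h1c being 0.0387. The part of these marker levels in the relations was not tested.

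**Figure D4:**
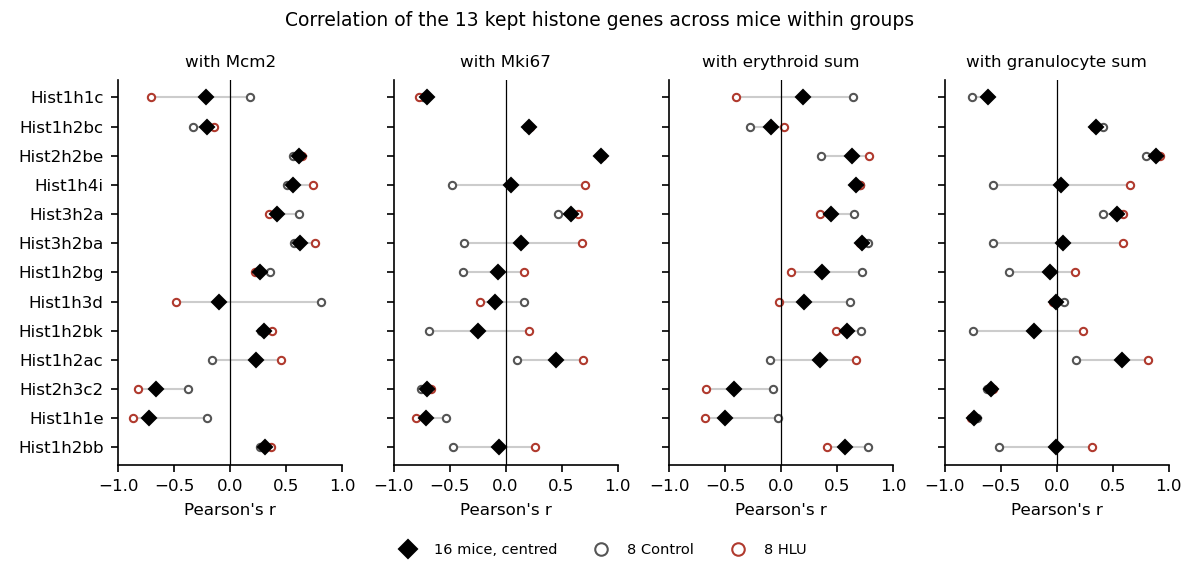
Pearson's r across mice within groups of the 13 histone genes with Mcm2, with Mki67, and with the summed erythroid and granulocyte markers; diamonds are 16 mice centred on their group means, open circles the 8 Control (grey) and 8 HLU (red) mice alone. Hist2h2be lies to the right (0.853) and Hist1h1c, Hist2h3c2 and Hist1h1e to the left in the Mki67 panel, and in the granulocyte panel Hist2h2be is again to the right (0.884) and those genes to the left.

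Single mice stood out in the scarce genes, a pattern noticed after the values were seen and given without a test. Control 7 had the most reads for its depth on each of 7 H2B genes of the chromosome 13 cluster (Hist1h2bb, Hist1h2bg, Hist1h2bj, Hist1h2bk, Hist1h2bp, Hist1h2bq and Hist1h2br). It held 218 of their 702 reads, or 31.1%, with 6.26% of all reads of the series. Reads were recovered from RPKM. For Hist1h2bp, Hist1h2bq and Hist1h2br the recovered lengths (1090, 6241 and 4799 bases) far exceeded the annotated exons (706, 2015 and 2212 bases). Their read counts are therefore uncertain. Over all members the recovered length equalled the annotated exon length for 22 of 63, so read counts of the others carry this limit too. The 7 were picked for this pattern, and Hist1h2bf, Hist1h2bh and Hist1h2be of the same cluster were highest in Control 8, HLU 8 and Control 3. Over all 14 H2B genes other than Hist1h2bc and Hist2h2be, Control 7 had 340 reads and the other mice 16 to 212. On the 7 genes, Control 8, HLU 6, Control 3 and Control 5 followed with 60 to 130 reads each, and the other 11 mice had 3 to 31. Hist1h2bj had reads in 3 mice only, Control 5 (11 reads), Control 7 (18) and HLU 6 (11). These genes share sequence, for example 66.5% of the 50-base windows of Hist1h2bk with Hist1h2bq and 59.4% of those of Hist1h2bj. Control 7 also had the highest Mcm2 (67.9 RPKM) and erythroid sum (8780 RPKM) of all mice, while its Mki67 (182 RPKM) was near the Control median of 184.

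In the H4 genes the mouse that stood out was HLU 2. It had reads on all 11 H4 genes other than Hist1h4i, where every other mouse had reads on 2 to 7 of them. It held 49 of the 175 reads on these genes, or 28.0%, with 6.60% of all reads. Without Hist2h4, which had reads in all mice, it held 39 of 84 reads. Hist1h4a and Hist1h4b had reads in HLU 2 alone (4 and 3 reads). Its summed RPKM over the 11 genes was 6.14, against at most 1.31 in the other 15 mice. HLU 2 had the highest granulocyte sum of all mice (44371 RPKM), and its own Hist1h4i (10.7 RPKM) lay among the other HLU mice. The part of these marker levels in either pattern was not tested.

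**Figure D5:**
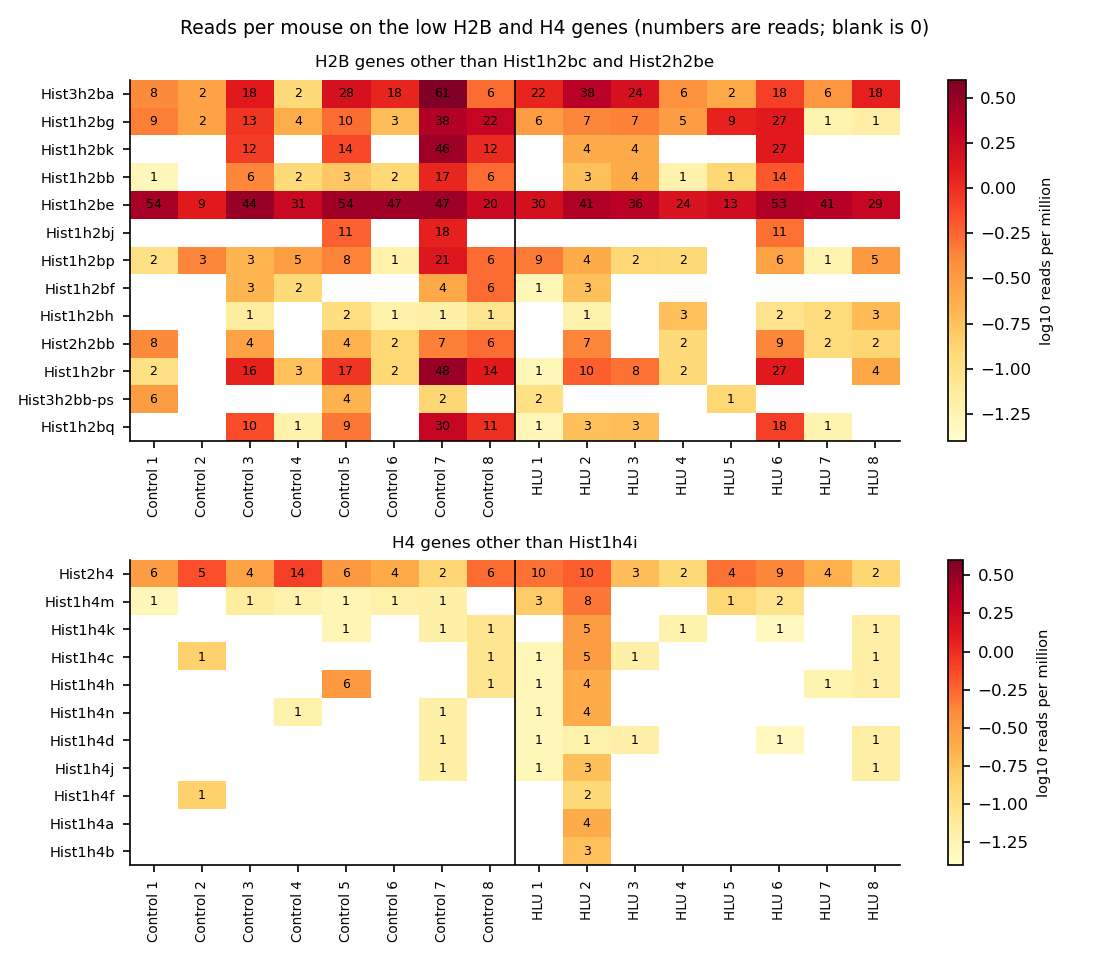
Reads (numbers) and depth-scaled reads on a log10 scale (colour) in each mouse on the scarce H2B genes (upper panel) and on the H4 genes other than Hist1h4i (lower panel), with Control to the left of the line and HLU to the right; blank is 0. Control 7 is the darkest column over most H2B genes, and HLU 2 is the only column filled throughout the H4 panel.

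Genes that make, process and deposit histones were measured as well, as lists. Their counts are to be read beside the 4.76% of all features called lower, the 1.11% called higher and the 11523 of 16973 below 0. Of 12 genes of histone mRNA transcription and processing that passed the filter, none was called and all 12 were below 0. Slbp, which binds the stem-loop, had medians of 25.9 RPKM in Control (14.3 to 29.5) and 17.7 in HLU (8.78 to 27.1), with a log2 fold change of -0.44 (SE 0.24, limma adjusted p = 0.744). Of the HLU mice, 7 were below the Control median of Slbp. Of 16 histone chaperones, 2 were called lower and 16 were below 0. They were Hat1, which acetylates new H4 (log2 fold change -0.42, SE 0.20), and Hjurp, which deposits the centromeric H3 variant (-0.33, SE 0.15). Of 28 genes of S phase and replication, 3 were called lower (Pcna at -0.53, Cdt1 at -0.51 and Fen1 at -0.54), none higher, and all 28 were below 0 with a median of -0.45. Mcm2 and Mki67 had log2 fold changes of -0.52 (SE 0.25) and -0.47 (SE 0.30). Of the marrow markers, 12 of 12 erythroid (3 called, median -0.57) and 4 of 4 megakaryocyte markers (2 called, median -0.62) were below 0. So were 7 of 7 B cell markers (1 called, median -0.35). Granulocyte markers had 6 of 7 below 0, 0 called and a median of -0.16, beside -0.10 over all features. The osteocyte markers went the other way, with 0 of 6 below 0, 1 called higher (Mepe) and a median of 0.49. Osteoblast markers had 5 of 7 below 0 (0 called, median -0.10) and osteoclast markers 3 of 4 (0 called, median -0.06). The part of these markers in the values of the gene lists was not tested. The histone and S phase genes named here had limma adjusted p-values of 0.744 to 0.747.

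The histones listed as replication-independent, whose symbols lie outside the rule for the members, had far higher levels in these poly(A) libraries than most members. Of 9 that passed the filter, 3 were called lower and none higher, beside 4.76% and 1.11% of all features. H2afx, the H2A variant phosphorylated at DNA breaks, had means of 23.4 ± 9.78 RPKM in Control and 15.0 ± 3.61 in HLU (SD), with a log2 fold change of -0.59 (SE 0.23, exact permutation p = 0.0233). H2afj, another H2A variant, had means of 12.8 ± 2.06 and 10.1 ± 2.62 RPKM and a log2 fold change of -0.36 (SE 0.15, exact permutation p = 0.0381). Cenpa, the centromeric H3 variant, had a log2 fold change of -0.49 (SE 0.22, exact permutation p = 0.0573). H3f3a and H3f3b, which encode H3.3, had means of 42.1 and 78.6 RPKM. The 11 cluster H3 genes, whose RNA without a tail was not measured, summed to 2.30 RPKM. The groups overlapped for each of these genes, and none passed the adjusted threshold.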

How the data were processed

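RNA of cortical bone, its marrow flushed out, was sequenced from 8 Control and 8 HLU mice, 1 library per mouse, with 8 libraries per lane (TruSeq RNA v2). The deposited values are RPKM, which the authors computed from reads aligned with TopHat2; the submitters' processing notes also name DESeq2 and the build mm9, without versions, and the annotation, gene lengths and counting tool are not given in the sources used here. The files give no coordinates. Positions and sequences come from GENCODE M21 (GRCm38) and RefSeq (GRCm38.p6), another build than mm9, matched by symbol.

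The members and the gene lists were chosen with earlier results of these data known. Low RPKM values are whole multiples of what 1 read is worth, so the smallest whole read counts they allow were recovered (whole for all 16973 features tested), with library divisors of 7067512 to 21363584 reads; limits set by reads cover counting error only. limma 3.58.1 (R 4.3.3, variance trend) was run on log2(RPKM + 0.1) for features averaging 0.5 RPKM or more, on which scale the changes of low genes are understated, and was tested on simulated data. Calls needed a 1.2-fold change with p below 0.05, and the stricter calls an adjusted p below 0.1. The smallest exact p that the splits allow is 0.000155. Correlations used values centred on group means and 100000 permutations within groups (smallest p 1e-05). Genes were named by rule: the 3 members of each class with the highest mean, every member called, Mcm2, Mki67, Slbp and the called genes of the histone lists. Same-numbered mice correlated at -0.17 to 0.51 (3 of 8 pairs above 0.1), so numbers were not taken as pairs. Alternatives covered pseudocounts, filters, scalings, a replicate block, voom, marrow covariates and leaving out mice.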

Additional observations from a re-analysis of the deposited data

Results flagged for a closer look

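In 12 of 68 groups of 8 mice the highest mouse stood apart from the next beyond Dixon's 95% criterion for the group's range. Control 7 was that mouse for Hist3h2ba (6.31 RPKM, next 2.44), Hist1h2bk (6.16, next 2.23), Hist1h2aj (0.970, next 0.195), the chaperone gene Hjurp (34.9, next 26.3), the H2A sum (12.2, next 9.78) and the H2B sum without Hist1h2bc and Hist2h2be (25.3, next 10.4). HLU 6 stood apart for Hist1h2bk (2.64 RPKM, next 0.53) and Hist1h2bb (1.40, next 0.537). HLU 2 stood apart for Hist1h4m (1.21 RPKM, next 0.383), Hist1h2aj (0.419, next 0.173) and the H4 sum without Hist1h4i (6.14, next 1.31). Control 5 stood apart for Hist1h1e (1.16 RPKM, next 0.611). Chance meets this criterion in about 1 in 20 groups of independent, normally distributed values. The RPKM here were not log-transformed, some were 0, and the sums share their genes with single rows. The 12 groups therefore cannot be set against that rate.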

How the results depend on the processing

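The number of histone genes called lower was 1 and went to 3 with no filter on low values (of 57 genes; Hist3h2a, Hist1h1b and Hist1h2ad) and to 0 with quantile normalization, where Hist3h2a was at -0.24; leaving out single mice gave 1 to 2, the second being Hist2h2be without HLU 8. The number called higher was 0, and 1 with no filter (Hist1h4d), 2 with the marrow covariates and 0 without any single mouse; the adjusted count stayed 0 without any single mouse. The replicate block left 1 lower and 0 higher, with a median log2 fold change of -0.33, and changed no call of the 13 genes; over all features it gave 199 higher and 840 lower calls, and 1 of 8 Control mice correlated best with its own number.

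The genes correlated with Mcm2 numbered 4, and 0 with no filter, 1 with a minimum mean of 2 RPKM and 0 with the marrow covariates; single mice left out gave 0 to 4. Those with Mki67 numbered 4, and 1 with no filter and 2 each with a minimum mean of 2 RPKM, quantile normalization and the covariates; single mice left out gave 1 to 4. A sign turned for Hist1h1c against Mki67 (r 0.0387 with the covariates), Hist1h1c (-0.0618 without the 2 smallest libraries, an alternative chosen after seeing the data; -0.12 to 0.15 over single mice left out), Hist3h2ba (-0.00954 with a pseudocount of 1; -0.22 to 0.41 over single mice), and with the covariates Hist1h4i (0.23), Hist1h2bk (0.86) and Hist1h2bb (0.27). The cause of these changes was not tested. Without single mice the class log2 ratios ran from -0.14 to 0.07 (H1), -0.51 to -0.36 (H2A), -0.28 to -0.18 (H2B), -0.43 to -0.24 (H3) and -0.33 to -0.14 (H4), and the median from -0.40 to -0.24. Depth limits the 50 members below the filter, which were tested only in the fit with no filter.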
